A study of Mus musculus
Mus spretus with 18 samples.

Results

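The 2 cerebral cortex libraries and the 2 heart libraries of a mouse RNA-seq series were compared with each other, and then together with the 10 libraries of tissues that are not electrically excitable. These 4 libraries are part of 18 in the series. For exons, the members were the skipped exon (SE) events on autosomes with 20 or more junction reads in each of the 4 libraries, which held for 16481 of 97090 autosomal events listed in any tissue, in 6767 genes. An SE event is an alternative exon together with its flanking exons, and because 1 exon can have several pairs of flanks, these events covered 15068 exons. For genes, all 38924 genes with deposited expression values were used, of which 17750 passed the filter on low values between both tissues.

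The organs came from female F1 hybrids aged 8 weeks. Their mother was C57BL/6J, a laboratory strain, and their father SPRET/EiJ, a wild-derived inbred strain of Mus spretus, so that each library holds RNA of both parental alleles. Adult organs were taken from 2 animals, and the labels do not say which libraries share an animal. The comparison tissues were embryonic stem cells (ESC), liver, spleen, lung and kidney, with 2 libraries each. The ESC libraries were separate clones grown in culture and have no age. The liver data were made in an earlier study, from the same animals per the study's text, which describes 1 hybrid for all organs. The labels of the liver libraries nevertheless give the maternal strain as C57BL/7J and C57BL/8J. Cortex, heart and kidney were sequenced with longer reads than spleen, lung and ESC, and were trimmed to the same length before alignment. Fibroblasts were not analysed here. All organs were whole tissue, so that fewer cells of a type and less RNA per cell cannot be told apart.

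Neurons and cardiomyocytes both fire action potentials through voltage-gated sodium, calcium and potassium channels, and both turn calcium entry into a response, vesicle release in the neuron and contraction in the cardiomyocyte. Many of the proteins involved, and the spectrin, ankyrin and microtubule scaffolds that hold them, are made from genes that are active in both cell types and alternatively spliced. Proteins of the Rbfox, Celf, Mbnl, Ptbp, Nova and Srrm families, together with Rbm20 and Rbm24, select such exons. The percent spliced in (PSI), here between 0 and 1, is the share of transcripts joining the given flanking exons that contain the alternative exon. It was estimated from inclusion and skipping junction reads, each divided by the number of positions where such a read can lie.

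Total junction reads over all listed events ranged from 46558287 to 48273341 in the cortex libraries and from 84921835 to 87332952 in the heart libraries, and the median tested event had between 545 and 556 reads per library. All 12 neuron markers were higher in cortex, and 8 of them averaged under 1 TPM in heart (TPM is a gene's share of all transcripts of a library, corrected for length). Snap25 was at 0 and 0.181 TPM there. All 10 cardiomyocyte markers were higher in heart. Their summed level was between 107115 and 108287 TPM in heart, between 83.2 and 83.7 TPM in cortex, between 963 and 1267 TPM in lung, and at 43.1 TPM or less in the other tissues. Of the other cell type lists, 6 of 7 astrocyte and 6 of 6 oligodendrocyte markers were higher in cortex. So were 3 of 4 choroid plexus and 2 of 5 microglia markers, against 47.1% of all genes. In heart, 5 of 5 endothelial, 4 of 5 fibroblast, 4 of 4 smooth muscle and 5 of 5 erythroid markers were higher. The same held for 4 of 4 atrial, 3 of 5 leukocyte, 1 of 3 skeletal muscle and 1 of 4 choroid plexus markers, against 13.4% of all genes. The summed endothelial level was between 436 and 442 TPM in heart and between 50.5 and 52.9 TPM in cortex. The part of these cell types in the exon and gene differences was not tested.

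Of the 16481 events, 2021 were spliced differently in cortex and heart (12.3%). Inclusion was higher in cortex for 1098 of them (6.66%) and higher in heart for 923 (5.6%). Many tested events were nearly always included, with a median PSI of 0.973 in each tissue. Without events above 0.9 or below 0.1 in all 4 libraries, 2252 of 5263 events were called. The 12.3% set beside the gene lists below is the share with such events included. The call required a Benjamini-Hochberg adjusted p under 0.05 in a quasi-binomial model with limma-moderated dispersions, and a difference in mean PSI of at least 0.1. The called events lay in 1875 exons of 1337 genes, and 131 genes held events in each direction. Their median absolute difference was 0.268, while libraries of the same tissue differed by a median of 0.0218 in cortex and 0.0290 in heart over the same events. Differences of 0.5 or more were reached by 274 events higher in cortex and 170 higher in heart, and 35 events differed by 0.9 or more. A further 982 events passed the adjusted p with a difference smaller than 0.1.

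**Figure D1:**
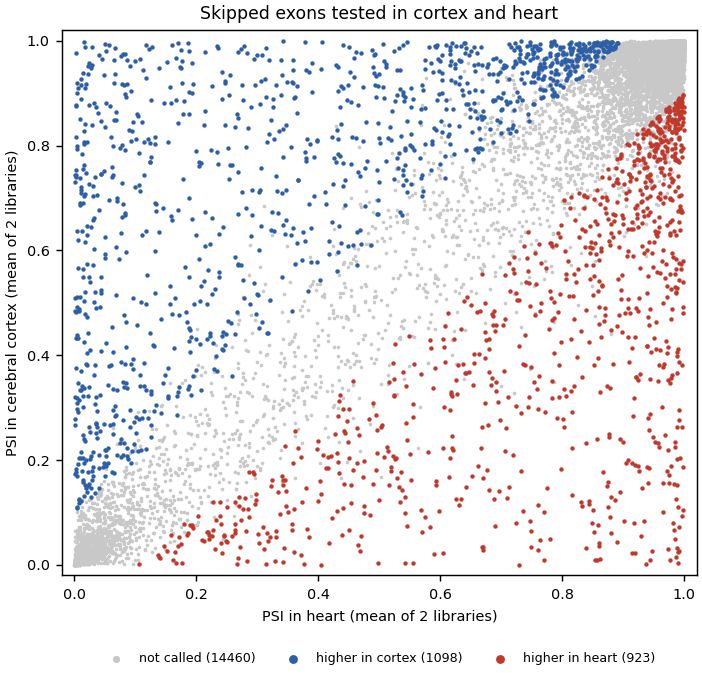
Mean PSI of the 16481 tested SE events in heart (x axis) and cerebral cortex (y axis), on linear axes from 0 to 1, with 1098 events called higher in cortex in blue, 923 called higher in heart in red and the others in grey. Called events lie away from the diagonal on both sides, up to the corners where an exon is nearly always included in 1 tissue and nearly always skipped in the other.

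The deposited tables list an event in a tissue only when it had at least 1 inclusion and 1 skipping read there. An exon that is always included or always skipped in 1 tissue, or whose gene is silent there, was therefore outside the comparison. Of the events with 20 reads in both cortex libraries, 20175 were not listed in heart, and 8298 of those with 20 reads in both heart libraries were not listed in cortex. The reads of each parental allele were available separately for 1234 called events with 20 or more reads per allele and library. Both alleles differed in the direction of the call in 1175 of them (95.2%), and both by 0.1 or more in 914 (74.1%). These allele reads are a part of the same libraries and no independent replicate.

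The exons with the largest difference are described first, chosen as the 12 genes with the largest called difference in each direction among events with 50 or more reads in every library. In the direction of cortex, 7 of the 12 exons were 24 bp or shorter, and in the direction of heart only that of Slc8a1 was. Exons of 30 bp or less made up 2.59% of all tested events and 13.8% of those called higher in cortex. In Dctn1, which encodes the large subunit of the dynein cofactor dynactin, a 21 bp exon (mm10, chr6:83183936-83183956, + strand) had a PSI of 0.998 and 0.996 in the cortex libraries and of 0 and 0.0315 in the heart libraries, from 93 to 1512 reads (adjusted p = 3.56e-12). Mef2c is a transcription factor of neurons and muscle. Its 24 bp exon (chr13:83654598-83654621, + strand) had a PSI of 0.973 and 0.98 in cortex and of 0.00293 and 0.00157 in heart (adjusted p = 5.48e-16). In kidney and spleen, the other tissues with enough reads, the Mef2c exon lay at 0.00892 or below, so that cortex alone among the measured tissues included it.

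Shank3, a postsynaptic scaffold, had a 24 bp exon at 0.924 and 0.929 in cortex and 0.0124 and 0.00952 in heart. A 24 bp exon of Synj1, a phosphatase of synaptic vesicle recycling, was at 0.96 and 0.953 in cortex and 0.00843 and 0.0395 in heart. In Atp6v0a1, a subunit of the proton pump that acidifies vesicles, an 18 bp exon stood at 0.953 and 0.95 in cortex against 0.012 and 0.0329 in heart. The cortex and heart libraries lay far apart in all 3 genes, and the other tissues lay with heart, except that ESC reached 0.237 and 0.401 for the Atp6v0a1 exon.

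Among longer exons, an 84 bp exon of Snap91, a clathrin assembly protein of synaptic vesicles, had a PSI of 0.991 and 0.994 in cortex and 0.0357 and 0.0783 in heart. An 81 bp exon of Plekha6 was at 0.987 and 1 in cortex and 0.0314 and 0.0686 in heart. Ablim3, which binds actin, had a 156 bp exon at 0.985 and 0.99 in cortex and 0.0132 and 0.0209 in heart. These exons too were nearly always included in cortex and nearly always skipped in heart. The Snap91 gene was itself low in heart, with a mean of 3.54 TPM against 214 TPM in cortex and 62 reads in the shallowest library.

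In the direction of heart, Tacc2, a centrosome and microtubule protein, showed the largest difference, for a 90 bp exon (chr7:130744527-130744616, + strand) at 0.987 and 0.99 in heart and 0.00209 and 0.00394 in cortex (adjusted p = 1.83e-16). A 711 bp exon of Mapt (chr11:104298546-104299256, + strand), the gene of the microtubule-binding protein tau, followed with 0.985 and 0.987 in heart against 0.014 and 0.0148 in cortex (adjusted p = 3.92e-17). A 33 bp exon of Clip1, which binds growing microtubule ends, had 0.982 and 0.994 in heart and 0.0362 and 0.0288 in cortex. All 3 genes thus kept in heart an exon that cortex nearly always skipped.

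Nebl encodes the Z-disc protein nebulette, and its 93 bp exon (chr2:17370459-17370551, - strand) had a PSI of 0.985 and 0.968 in heart and of 0.0177 and 0.00282 in cortex (adjusted p = 8.09e-14). In Slc8a1, the sodium-calcium exchanger that removes calcium from the cardiomyocyte, a 15 bp exon (chr17:81441652-81441666, - strand) had 0.973 and 0.914 in heart and 0.0162 and 0.00297 in cortex (adjusted p = 3.17e-12). In Ryr2, the calcium release channel of the sarcoplasmic reticulum, a 36 bp exon (chr13:11647702-11647737, - strand) had 0.932 and 0.942 in heart and 0 and 0.00466 in cortex (adjusted p = 6.88e-16). Heart did not stand alone for the Ryr2 exon, since ESC, the other tissue with enough reads, had a PSI of 0.981 and 0.945. Mfn2, which fuses mitochondria, had an 83 bp exon (chr4:147902928-147903010, - strand) at 0.973 and 0.972 in heart and 0.0307 in both libraries in cortex (adjusted p = 1.36e-18). The length of the Mfn2 exon is not a multiple of 3. Pitpnm2, Prune2, Ank2 and Synrg were also among the 12 genes, with exons of 162, 36, 92 and 234 bp that lay at 0.942 or above in heart and at 0.0938 or below in cortex.

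Myo18a, an unconventional myosin, was among the leading genes in both directions. Its 12 bp exon had a PSI of 0.946 and 0.95 in cortex and 0.0259 and 0.0291 in heart, and its 45 bp exon, further along the gene, had 0.0748 and 0.057 in cortex and 0.983 and 0.984 in heart. The exon chosen in 1 tissue was left out in the other at both places. The mean level of the gene was 45.3 TPM in cortex and 62.1 TPM in heart.

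**Figure D2:**
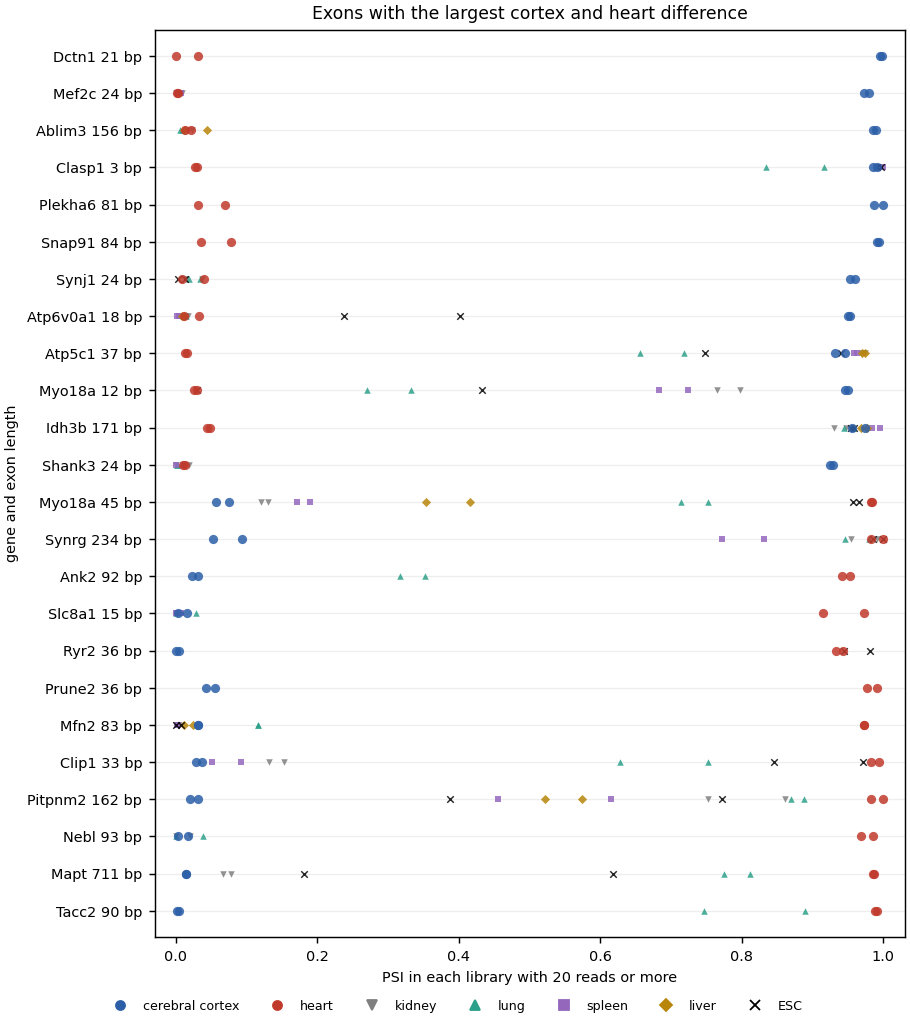
PSI (x axis, 0 to 1) in every library with 20 or more reads for the 12 genes with the largest called difference in each direction, labelled by gene and exon length, with cortex as blue circles, heart as red circles and each other tissue as its own symbol. Cortex and heart lie at opposite ends in all 24 rows, while the other tissues lie near heart for Mef2c and Shank3, nearer to cortex for Clasp1, Atp5c1, Idh3b, Nebl and Mfn2, and spread between them for Myo18a and Pitpnm2.

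The mean PSI of the non-excitable tissues was placed on the span between heart and cortex for the 1854 called events measured in 2 or more of them. In 735 events (39.6%) that mean lay within 0.25 of the span from the heart value, so that cortex stood apart from the mean. In 261 (14.1%) it lay within 0.25 of the span from the cortex value, so that heart stood apart from it. Single tissues could still lie elsewhere. A 153 bp exon of Aldoa counted as cortex apart at a mean of 0.609 in cortex, with 0.894 in ESC and 0.227 in liver. The mean lay in the middle of the span in 384 events (20.7%) and outside these limits in 474 (25.6%). Where cortex stood apart, 389 events were higher in cortex, with a median PSI of 0.721 in cortex, 0.0939 in heart and 0.0896 elsewhere, and 346 were lower in cortex. Where heart stood apart, 151 events were lower in heart and 110 higher, the latter with a median PSI of 0.674 in heart, 0.0994 in cortex and 0.103 elsewhere.

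Heart skipped exons of Atp5c1, Idh3b, Immt and Clasp1 that cortex and the other measured tissues mostly included. Atp5c1 encodes the gamma subunit of mitochondrial ATP synthase. Its 37 bp exon (chr2:10056770-10056806, - strand) had a PSI of 0.0124 and 0.0158 in heart and of 0.931 and 0.946 in cortex, from 4088 to 22856 reads (adjusted p = 1.01e-19), and lay between 0.656 and 0.974 in the other tissues. A 171 bp exon of Idh3b (chr2:130279556-130279726, - strand), a subunit of the citric acid cycle enzyme isocitrate dehydrogenase, had 0.0437 and 0.0476 in heart, 0.974 and 0.956 in cortex and 0.931 or above elsewhere (adjusted p = 1.49e-18). A 105 bp exon of Immt, which shapes mitochondrial cristae, had 0.0292 and 0.0318 in heart, 0.67 and 0.738 in cortex and 0.815 or above elsewhere, so that cortex too lay below the others and the exon was also called shared and lower. Skipping was the heart form in these 3 mitochondrial genes. All 3 were also expressed at a higher level in heart, with 1453 and 1411 TPM for Atp5c1, 593 and 583 TPM for Idh3b and 286 and 291 TPM for Immt and log2 differences between cortex and heart of -2.25, -1.67 and -1.71 in that order. Clasp1, which stabilises microtubules, had a 3 bp exon (chr1:118547656-118547658, + strand) at 0.0295 and 0.0266 in heart, 0.991 and 0.985 in cortex and 0.834 or above in lung, spleen and ESC, the other tissues with enough reads. In the list of mitochondrial and energy genes, which holds none of these 4 genes, 3 of 42 events were called (7.14%, against 12.3% over all events), 2 in Eno2 and 1 in Aldoa, both enzymes of glycolysis.

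Lung lay nearest to heart among the measured non-excitable tissues for some exons that were high in heart. The Mapt exon had 0.774 and 0.812 in lung, and 0.066 and 0.0784 in kidney and 0.617 and 0.18 in ESC. The Mfn2 exon had 0.116 and 0.115 in lung and 0.0237 or below in the other 4 tissues. Cardiomyocyte transcripts were also present in the lung libraries, with Myh6, a cardiac myosin, at a mean of 147 TPM in lung and at 0.280 TPM or less on average in kidney, spleen, liver and ESC. Their part in these values was not tested. For the Nebl and Slc8a1 exons lung stayed at 0.0387 or below.

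The share of called events varied with exon length. Among the 427 events with an exon of 30 bp or less, 152 were higher in cortex (35.6%) and 38 higher in heart (8.9%), against 6.66% and 5.6% of all events. Exons of 31 to 60 bp were called 183 times higher in cortex and 181 times higher in heart of 1893. The median absolute difference of called events was 0.535 for exons of 30 bp or less and 0.268 for all. Exons whose length was a multiple of 3, which keep the reading frame, made up 43.2% of all tested events, 67.8% of those higher in cortex and 60.3% of those higher in heart. Events that share an exon or a gene are not independent of each other.

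**Figure D3:**
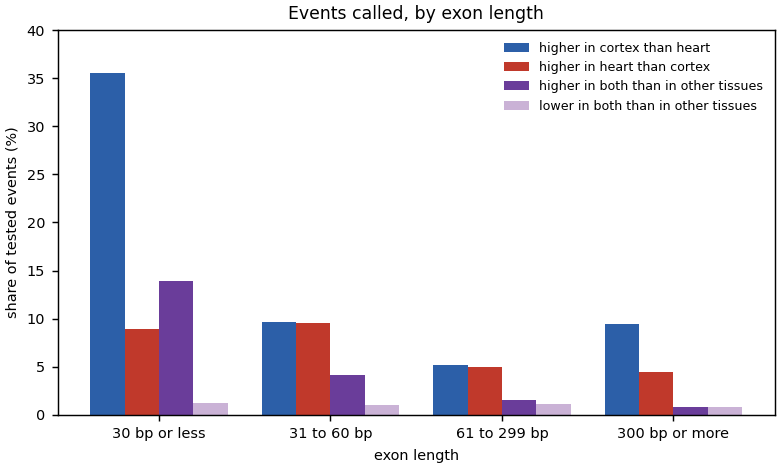
Share of tested events called (y axis, percent, from 0) in each class of exon length (x axis), with bars for events higher in cortex, higher in heart, and higher or lower in both tissues than in all non-excitable tissues. Exons of 30 bp or less were called higher in cortex in 35.6% and higher in both tissues in 13.9%, against 6.66% and 2.09% of all events.

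Cortex and heart also shared exons that set them apart from every non-excitable tissue measured. An event was called shared when cortex and heart together differed from the others with an adjusted p under 0.05 in a limma model of log2 inclusion ratios, when all 4 libraries lay on 1 side of every other library, and when the nearest tissue mean was at least 0.1 away. Of 13333 events with 20 or more reads in at least 3 of the 5 non-excitable tissues, 426 were shared (3.2%). Of these, 279 were higher in both excitable tissues (2.09%), in 226 genes, and 147 were lower (1.1%), in 117 genes. The higher ones had a median PSI of 0.819 in cortex, 0.681 in heart and 0.106 in the others, and the lower ones 0.315 in cortex, 0.444 in heart and 0.860 in the others. The distance to the nearest tissue reached 0.5 in 51 of the higher and in 3 of the lower events. Without the lung libraries, an alternative chosen after the data had been seen, 265 events were higher and 162 lower. Against kidney alone, whose reads had the same length before trimming, 348 of the 426 shared events were called again, an alternative also chosen after the data had been seen. The rule for shared events had already separated them from kidney wherever kidney was measured, so these repeated calls give no support.

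The shared exon with the largest distance lay in Erc1, a scaffold of the presynaptic active zone that is also made outside neurons. Its 67 bp exon (chr6:119618846-119618912, - strand) had a PSI of 0.881 and 0.852 in cortex, 0.815 and 0.8 in heart and 0.0347 or below in all other libraries (adjusted p = 1.12e-05). Lrrfip1, a cytoplasmic protein that binds nucleic acids, had a 78 bp exon at 0.872 and 0.932 in cortex, 0.843 and 0.816 in heart and at most 0.0594 elsewhere. Cortex and heart lay close together in both genes, and all others lay near 0. Emc1, a subunit of the complex that inserts membrane proteins, had a 9 bp exon (chr4:139364331-139364339, + strand) at 0.824 and 0.84 in cortex, 0.889 and 0.887 in heart and 0.09 or below elsewhere (adjusted p = 0.000202). Kif21a, a kinesin, had a 21 bp exon (chr15:90964975-90964995, - strand) at 0.904 and 0.925 in cortex, 0.916 and 0.99 in heart and 0.223 or below elsewhere.

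Dpf2, a subunit of a chromatin remodelling complex, had a 42 bp exon at 0.793 and 0.815 in cortex and 0.77 and 0.764 in heart, and Dst, a linker of cytoskeletal filaments, had a 72 bp exon at 0.825 and 0.82 in cortex and 0.858 and 0.853 in heart. The highest value in any other library was 0.0438 for Dpf2 and 0.147 for Dst. Tacc2 (141 bp), Lmo7 (282 bp), Mical2 (108 bp) and Raph1 (75 bp) completed the 10 genes with the largest distance, which had 0.723 or more in every cortex and heart library and 0.254 or less in every other. Tacc2 and Erc1 therefore each held an exon that cortex and heart shared and an exon in which they were opposite. The opposite exon of Erc1, of 93 bp, had 0.0658 and 0.0433 in cortex and 0.941 and 0.918 in heart, with the measured non-excitable tissues between 0.4 and 0.792.

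Exons that both tissues skipped were led by Map4, a microtubule-associated protein found outside neurons. Its 114 bp exon (chr9:110071026-110071139, + strand) had a PSI of 0.293 and 0.269 in cortex, 0.308 and 0.343 in heart and 0.96 or above in all other libraries (adjusted p = 3.26e-06). Sugp2, which is related to splicing factors, had an 87 bp exon at 0.152 and 0.111 in cortex, 0.181 and 0.256 in heart and 0.757 or above elsewhere. Sun1, which links the nucleus to the cytoskeleton, had a 192 bp exon at 0.226 and 0.212 in cortex, 0.228 and 0.252 in heart and 0.787 or above elsewhere. In these 3 events the exon was mostly kept in the other tissues and mostly left out in cortex and heart. The remaining 7 genes were 2700050L05Rik, 4833439L19Rik, Ppip5k1, Trpm4, Gse1, Pitpnc1 and Ablim1, in which cortex and heart lay at 0.574 or below.

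**Figure D4:**
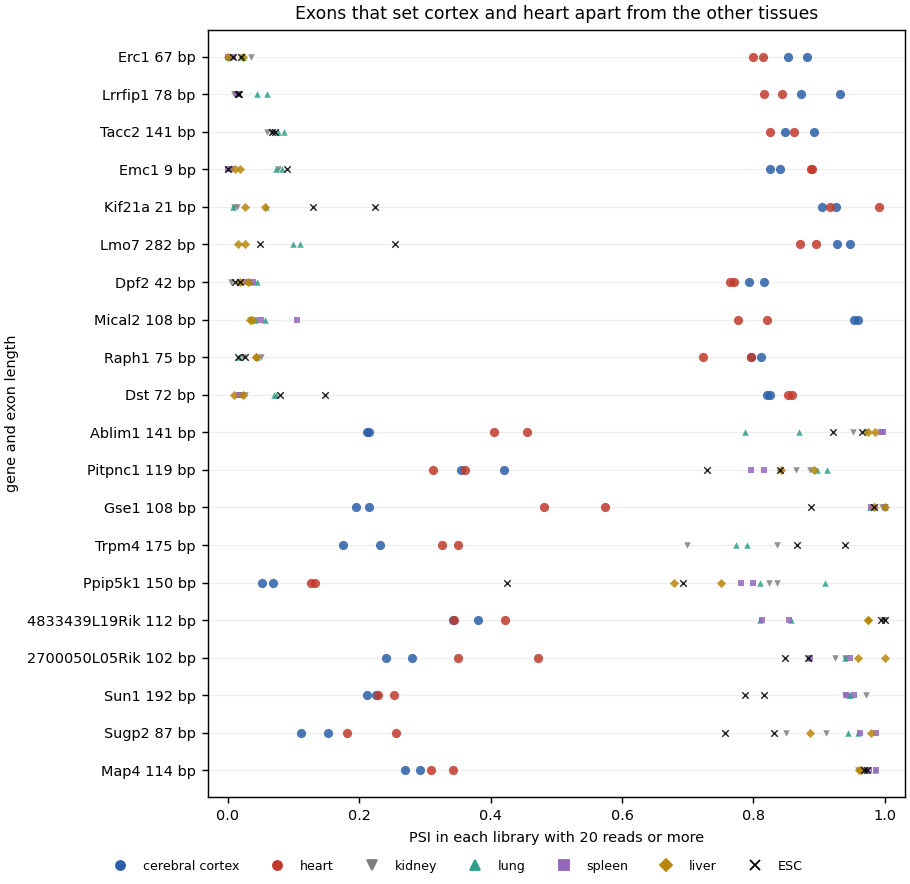
PSI (x axis, 0 to 1) in every library with 20 or more reads for the 10 genes with the largest distance between both excitable tissues and the nearest non-excitable tissue in each direction, labelled by gene and exon length, with cortex as blue circles, heart as red circles and each other tissue as its own symbol. In the upper 10 rows cortex and heart lie at 0.723 or above and the others at 0.254 or below, and in the lower 10 rows cortex and heart lie at 0.574 or below.

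Of 331 events with an exon of 30 bp or less, 46 were shared and higher (13.9%, against 2.09% of all events). Only 4 were shared and lower (1.21%), a share near the 1.1% of all events. Of the shared higher events 83.2% had a length that is a multiple of 3, and of the shared lower events 59.2%. Among all 13333 events of that test, 5670 had such a length.

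The Mef2 transcription factors, which bind muscle and neuronal promoters, showed both patterns within 1 family. A 24 bp exon of Mef2a (chr7:67244521-67244544, - strand) had 0.866 and 0.893 in cortex and 0.758 and 0.745 in heart, and a 21 bp exon of Mef2d (chr3:88161781-88161801, + strand) had 0.93 and 0.968 in cortex and 0.754 and 0.78 in heart. In the other tissues the Mef2a exon lay at 0.222 or below and the Mef2d exon at 0.0777 or below. The 24 bp exon of Mef2c was included in cortex only, so that the 3 genes were alike in cortex and unlike in heart. Mean gene levels in cortex and heart were 107 and 69 TPM for Mef2a, 129 and 109 TPM for Mef2d and 256 and 23.8 TPM for Mef2c. The differences in level of Mef2a and Mef2d lie under the log2 difference of 1 required for a call. Which tissue is higher for these genes can depend on scaling. A 135 bp exon of Mef2d was called higher in heart (adjusted p = 0.000155), but the cortex libraries stood at 0.0933 and 1 with as few as 20 reads, and without the first of them the difference in PSI turned to 0.0313. In the list of Mef2 and other transcription factor genes, 7 events were higher in cortex and 5 higher in heart of 33 (36.4% called, 12.3% over all events).

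Calcium/calmodulin-dependent kinase II (CaMKII), which responds to calcium in both cell types, has an alternatively spliced linker between its kinase and association domains. A 33 bp exon of Camk2a had a PSI of 0.761 and 0.736 in heart and 0.0668 and 0.0627 in cortex (adjusted p = 2.25e-14), although the gene stood at 24.9 and 23.3 TPM in heart and 1046 and 1075 TPM in cortex. A 60 bp exon of Camk2d (chr3:126805857-126805916, + strand) had 0.99 and 0.984 in cortex and 0.128 and 0.125 in heart (adjusted p = 5.14e-16), with mean gene levels of 28.7 and 28.5 TPM. The level of Camk2d depends on scaling, since its log2 difference between cortex and heart was 0.01 in the deposited values and -0.88 after rescaling by the median ratio of all genes. A 42 bp exon of Camk2d further along the gene was shared, at 0.799 and 0.869 in cortex, 0.719 and 0.715 in heart and 0.0738 or below elsewhere.

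A 45 bp exon of Camk2b was also shared, at 0.828 and 0.845 in cortex, 0.775 and 0.718 in heart and 0.0901 or below elsewhere. In Camk2g a 33 bp exon had 0.808 and 0.864 in cortex, 0.296 and 0.23 in heart and 0.00686 or below elsewhere, so that it was both shared and higher in cortex. With another pair of flanking exons the same exon had 0.619 and 0.653 in cortex, 0.39 and 0.359 in heart and 0.0454 or below elsewhere, a smaller difference that was also called in both comparisons. Ppp3ca, the catalytic subunit of the calcium-dependent phosphatase calcineurin, shared a 30 bp exon at 0.795 and 0.789 in cortex and 0.648 and 0.637 in heart, against 0.0684 or below elsewhere. A 75 bp exon of Camk2b was called higher in cortex with 0.975 and 0.978 against 0.806 and 0.514 in heart (adjusted p = 0.0117), which rose to 0.237 without the second heart library. In the list of CaM kinase and calcineurin genes 11 of 43 events were higher in cortex and 4 higher in heart (34.9% called, 12.3% over all events), and 6 of 29 were shared and higher (20.7%, against 2.09% over all events).

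Among ion channels, 5 of 29 events in calcium channel genes were higher in cortex and 3 higher in heart (27.6% called, 12.3% over all events). Cacna1c, the pore of the L-type channel that starts contraction, had a 75 bp exon at 0.0675 and 0.0413 in cortex and 0.49 and 0.448 in heart (adjusted p = 8.03e-10). Cacna1g, a T-type channel, had a 69 bp exon at 0.766 and 0.86 in cortex and 0.333 and 0.43 in heart, and Cacna2d1, an auxiliary subunit, had a 21 bp exon at 0.987 and 0.992 in cortex and 0.605 and 0.645 in heart. In these 3 genes heart used both forms, while cortex used mostly 1. Among potassium and pacemaker channels, 4 of 17 events were higher in cortex and 1 was higher in heart (29.4% called, with the same 12.3% over all events). Kcnip2, a subunit of the channel that carries the transient outward current, had a 54 bp exon at 0.946 and 0.96 in cortex and 0.447 and 0.412 in heart. In Kcnab2, an auxiliary potassium channel subunit, a 42 bp exon had 0.997 and 0.995 in cortex and 0.171 and 0.202 in heart.

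The calcium release, pump and exchanger genes held 5 events higher in cortex and 8 higher in heart of 49 (26.5% called, 12.3% over all events). Beside Ryr2 and Slc8a1, a 45 bp exon of Asph, whose gene also makes junctional proteins of the reticulum, had 0.865 and 0.886 in cortex and 0.0032 and 0.00207 in heart. A 51 bp exon of Itpr1, the inositol trisphosphate receptor, had 0.864 and 0.86 in cortex and 0.0193 and 0.0588 in heart. The 11 events of sodium-potassium pump genes had a median absolute difference of 0.00112, against 0.0143 over all events.

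Genes of the sarcomere and Z-disc held 32 events higher in heart and 9 higher in cortex of 97 (42.3% called, 12.3% over all events), with a median difference in PSI of -0.0251 between cortex and heart against 3.6e-05 over all events. Pdlim5, a Z-disc adaptor, had an 18 bp exon at 0.881 and 0.875 in heart and 0.079 and 0.104 in cortex (adjusted p = 6.08e-11). Sorbs2, which binds actin and vinculin, had a 1581 bp exon at 0.864 and 0.9 in cortex and 0.0338 and 0.0306 in heart, and its 57 bp exon had 0.375 and 0.386 in cortex and 0.737 and 0.739 in heart. The exons of Sorbs2 thus differed in opposite directions. Tnnt2, cardiac troponin T, had a 30 bp exon at 0.956 and 0.875 in cortex and 0.00962 and 0.0107 in heart, with a gene level of 8.27 and 7.88 TPM in cortex and 17772 and 17701 TPM in heart, and as few as 31 reads in a cortex library. A 51 bp exon of Palld, an actin cross-linker, was at 0.934 and 0.922 in heart, 0.344 and 0.384 in cortex and 0.114 or below in the others.

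Intercalated disc and costamere genes, which anchor the cardiomyocyte membrane, held 15 events in each direction of 91 (33% called, 12.3% over all events). Ank2, an ankyrin that holds ion channels in the membrane of both cell types, had a 92 bp exon (chr3:126926803-126926894, - strand) at 0.0309 and 0.0232 in cortex and 0.942 and 0.952 in heart, from 862 to 2980 reads. Lmo7, a junctional protein, had a 720 bp exon at 0.872 and 0.919 in cortex and 0.27 and 0.237 in heart. Sptan1, the alpha spectrin of non-erythroid cells, had a 15 bp exon at 0.966 and 0.969 in cortex and 0.46 and 0.458 in heart. Inclusion was thus higher in heart for Ank2 and higher in cortex for Lmo7 and Sptan1. A 129 bp exon of Pkp4, a plakophilin of cell junctions, was shared, at 0.937 in both libraries in cortex and 0.783 and 0.803 in heart, with the others between 0.133 and 0.602.

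Genes of synaptic vesicles and active zones held 33 events higher in cortex and 6 higher in heart of 66 (59.1% called, 12.3% over all events), and the median difference in PSI over the 66 was 0.153. Exons shared with heart were found in vesicle coat genes. Ap2a1, an adaptor of clathrin-coated vesicles, had a 66 bp exon at 0.849 and 0.858 in cortex, 0.69 and 0.653 in heart and 0.0314 or below elsewhere. Ap1b1, a subunit of the adaptor at the Golgi, had a 21 bp exon at 0.882 and 0.889 in cortex, 0.548 and 0.533 in heart and 0.0107 or below elsewhere. A 36 bp exon of Clta, a clathrin light chain, had 0.647 and 0.678 in cortex, 0.238 and 0.212 in heart and 0.00644 or below elsewhere. In each of the 3 genes, cortex and heart carried an exon that the others nearly always left out, and cortex more than heart.

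Synapse adhesion and postsynaptic genes held 13 events higher in cortex and 5 higher in heart of 46 (39.1% called, 12.3% over all events). Homer1, a postsynaptic scaffold that is also made in muscle, had a 36 bp exon at 0.952 and 0.949 in cortex and 0.197 and 0.148 in heart. Gphn, which anchors inhibitory receptors, had a 108 bp exon at 0.173 and 0.142 in cortex and 0.946 and 0.982 in heart, where it lay with the other tissues, all at 0.894 or above. Agrin (Agrn), which clusters receptors at the nerve-muscle synapse, shared a 12 bp exon (chr4:156169546-156169557, - strand) at 0.914 and 0.878 in cortex, 0.544 and 0.514 in heart and 0.231 or below elsewhere (adjusted p = 2e-05). Microtubule and motor genes held 28 events higher in cortex and 27 higher in heart of 113 (48.7% called, 12.3% over all events), and 10 of 79 were shared and higher (12.7%, against 2.09%). A 24 bp exon of Clasp1 was among the shared ones, at 0.858 and 0.887 in cortex and 0.836 and 0.833 in heart, while the 3 bp exon of the same gene was skipped by heart alone.

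Mitochondrial fission and fusion genes held 6 events higher in cortex and 7 higher in heart of 44 (29.5% called, 12.3% over all events), and 5 of 39 were shared and higher (12.8%, against 2.09%). Dnm1l, which divides mitochondria, had a 33 bp exon at 0.928 and 0.909 in cortex and 0.23 and 0.263 in heart. Mff, its receptor on the outer membrane, had a 75 bp exon at 0.0621 and 0.0635 in cortex and 0.599 and 0.541 in heart, and a 159 bp exon that both tissues shared, at 0.73 and 0.721 in cortex, 0.539 and 0.563 in heart and 0.198 or below elsewhere. The alleles were unequal at both Mff exons. The cortex minus heart difference was -0.0355 on 1 allele and -0.76 on the other for the 75 bp exon. For the 159 bp exon it was 0.0423 and 0.534 in that order. Most of either difference thus lay on the same allele, whose strain the columns do not name. The study reports an Mff exon that is included only in heart on the SPRET/EiJ allele and fully skipped on the maternal allele. It names that exon among its candidates for a possible functional effect. A match of that exon to the 75 bp exon was not tested. Opa1, which fuses the inner membrane, had a 111 bp exon at 0.125 and 0.114 in cortex and 0.555 and 0.512 in heart. Each of these genes was expressed in both tissues, with mean levels from 63.4 to 248 TPM.

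Gene expression was compared by limma on log2(TPM + 1). Of 17750 genes with at least 1 TPM in the libraries of a tissue, 10746 differed with an adjusted p under 0.05 and a log2 difference of at least 1 (60.5%). Of these, 8360 were higher in cortex (47.1%) and 2386 higher in heart (13.4%). This split depends on scaling, since the median gene differed by 0.89 on the log2 scale in the deposited values and by 0.09 after rescaling by the median ratio, which gave 5049 genes higher in cortex and 4421 higher in heart. The directions called here for single genes between cortex and heart hold under both scalings unless stated. Gene levels given without a called difference can change order with rescaling, as they did for Camk2d and Mbnl1. Differences on the log2(TPM + 1) scale understate those of genes at low levels.

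The splicing regulators differed in level. Of 30 regulator genes tested, 24 were higher in cortex (80%, against 47.1% over all genes) and 3 higher in heart (10%, against 13.4%). After rescaling 15 were higher in cortex and 4 higher in heart, against 5049 and 4421 of all 17491 genes tested. Higher in cortex under both scalings were Rbfox1, Rbfox3, Celf2, Celf3, Celf4, Celf5, Celf6, Ptbp2, Nova1, Nova2, Srrm3, Elavl2, Elavl3, Elavl4 and Khdrbs2. Rbfox1 was at 244 and 245 TPM in cortex, 27.7 and 27.9 TPM in heart and 1.29 TPM or less on average in every other tissue, a log2 difference of 3.09 between cortex and heart. Srrm4, which activates very short neuronal exons, was at 25.8 and 25.6 TPM in cortex, 13.2 and 11.9 TPM in heart and 0.951 TPM or less on average elsewhere. Rbfox1 and Srrm4 were thus present in both excitable tissues and low in the others. Srrm3, a relative of Srrm4, was at 25.8 and 30.9 TPM in cortex and 0.00179 and 0.00924 TPM in heart.

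Rbm20, Rbm24 and Rbm38 were higher in heart. Rbm20, which acts on titin and on calcium-handling genes, was at 4.05 and 3.91 TPM in cortex and 159 and 139 TPM in heart (log2 difference -4.91, adjusted p = 2.66e-07). Rbm24 was at 16 and 16.1 TPM in cortex and 145 and 143 TPM in heart (log2 difference -3.09), and Rbm38 at 1.89 and 2.19 TPM in cortex and 133 and 134 TPM in heart (log2 difference -5.46). Rbm38 was also high in spleen and ESC, with 120.0 and 106 TPM on average. Ptbp1, which represses many neuronal and muscle exons, was at 25 and 22.4 TPM in cortex and 31.4 and 32.2 TPM in heart, below its level in every other tissue, where averages ran from 40.6 TPM in liver to 348 TPM in ESC.

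The Rbfox genes were also spliced apart, at a 43 bp exon of each. In Rbfox1 (chr16:7369801-7369843, + strand) it had a PSI of 0.136 and 0.121 in cortex and 0.897 and 0.862 in heart (adjusted p = 1.33e-08), and in Rbfox2 (chr15:77091812-77091854, - strand) it had 0.0769 and 0.0903 in cortex and 0.935 and 0.931 in heart (adjusted p = 3.86e-12). An exon of this length is known from the muscle forms of both proteins. A 36 bp exon of Mbnl1 had 0.738 and 0.784 in cortex and 0.202 and 0.207 in heart, and a 95 bp exon of Mbnl2 had 0.564 and 0.473 in cortex and 0.14 and 0.123 in heart. Over the regulator list 6 events were higher in cortex and 2 higher in heart of 49 (16.3% called), a share near the 12.3% over all events.

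**Figure D5:**
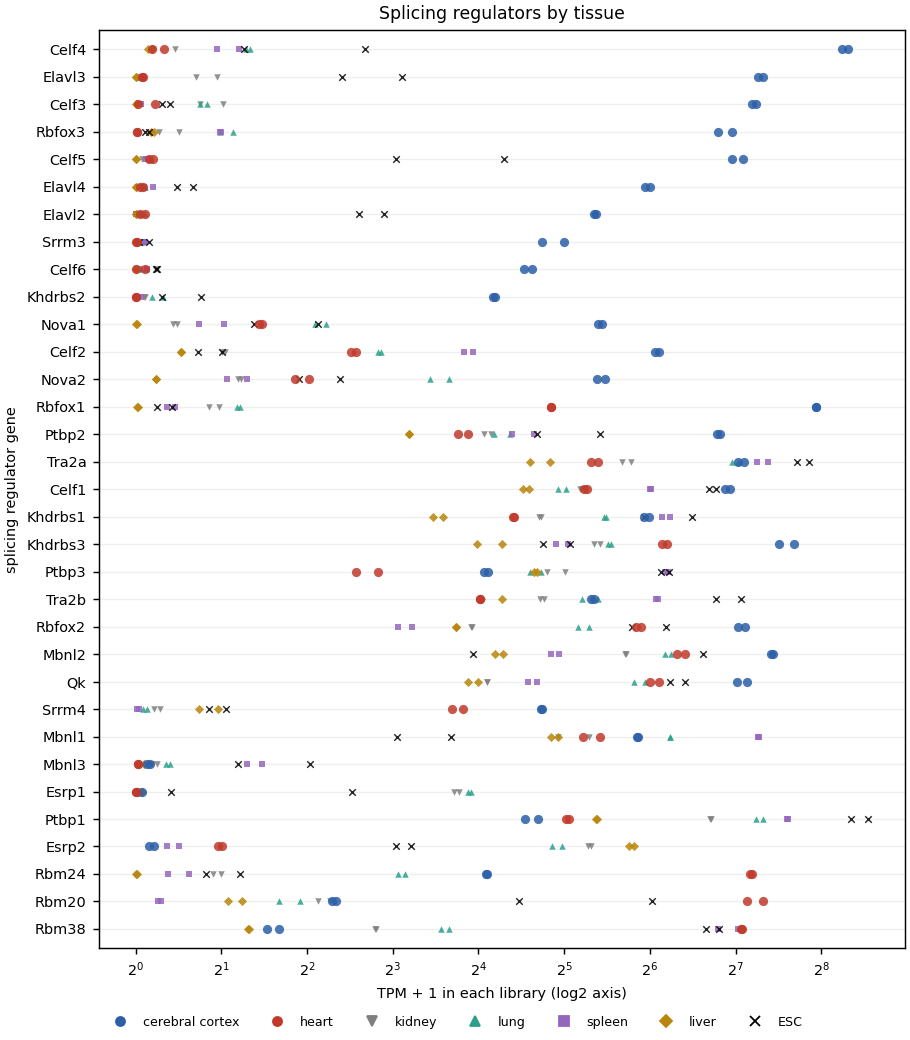
Expression of 33 splicing regulator genes in each of the 14 libraries (x axis, TPM + 1, log2 axis), ordered from the highest ratio of cortex to heart at the top, with cortex as blue circles, heart as red circles and each other tissue as its own symbol. Celf3, Celf4 and Elavl3 lie at 5.97 TPM or less on average outside cortex, Rbfox1 and Srrm4 are raised in cortex and heart, Ptbp1 is lowest in cortex and heart, and Rbm38, Rbm20 and Rbm24 are higher in heart than in cortex.

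The genes with the largest differences in level were named by rule, 10 in each direction. Snap25, part of the fusion machinery of synaptic vesicles, was at 894 and 910.0 TPM in cortex (log2 difference 9.70), and Kif5a, a neuronal kinesin, at 1363 and 1274 TPM (9.52). Both genes lay at 0.861 TPM or less in the heart libraries. Cplx1, Syt1, Stmn3 and Slc1a2 had log2 differences between 9.10 and 9.43. Sst, a neuropeptide gene, was at 489 and 529 TPM in cortex and was listed at 0 in both heart libraries. Mir770 and Gm25749 also belonged to the 10, but small RNA genes inside other transcription units can share reads with them and are uncertain.

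In the direction of heart, Mb, myoglobin, stood at 24679.7 and 23779 TPM in heart (log2 difference -14.24), Actc1, cardiac actin, at 17469 and 18061 TPM (-14.09), and Myh6, the adult cardiac myosin heavy chain, at 12122 and 11969 TPM (-13.40). Myl2, Myl3, Ckmt2, Ckm, Csrp3, Mybpc3 and Tnnt2 were the other 7, with log2 differences between -12.97 and -10.93. They encode myosin light chains, creatine kinases and proteins of the thick filament, thin filament and Z-disc.

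Genes for several steps of excitation stood far apart in level. The sodium channel gene Scn8a was at 111 and 117 TPM in cortex and 0.0142 and 0.0215 TPM in heart, and the potassium channel gene Kcnq1 at 67.4 and 61.9 TPM in heart and 0.323 and 0.464 TPM in cortex. Each of them lay under 1 TPM in the other tissue. For calcium handling, the exchanger Slc8a2 was at 189 and 227 TPM in cortex and 0.428 and 0.652 TPM in heart, and Atp2a2, the calcium pump of the reticulum, at 7201 and 7538 TPM in heart and 618 and 684 TPM in cortex. Junctophilins tie the reticulum to the cell membrane, and Jph3 was at 150.2 and 162 TPM in cortex and 0.00258 and 0.0425 TPM in heart, against 394 and 352 TPM in heart and 0.83 and 0.94 TPM in cortex for Jph2.

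Sarcomere and Z-disc genes were higher in heart in 49 of 53 cases (92.5%, against 13.4% over all genes). Their median log2 difference was -6.33, against 0.90 over all genes. Only 1 gene of that list, Tpm3, was higher in cortex, a call that was lost after rescaling. Genes of synaptic vesicles and active zones were higher in cortex in 40 of 44 cases (90.9%, against 47.1% over all genes) and in 34 after rescaling. Synapse adhesion and postsynaptic genes were higher in cortex in 33 of 33 cases (100%, against the same 47.1%) and in 29 after rescaling. Over all 17491 genes tested after rescaling, 5049 were higher in cortex and 4421 higher in heart. In the list of calcium release, pump and exchanger genes 13 of 28 were higher in cortex and 9 higher in heart, and 12 each after rescaling. Higher in cortex were thus 46.4% of that list, close to the 47.1% over all genes, and higher in heart 32.1%, against 13.4%.

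A small group of genes was expressed at a higher level in both excitable tissues than in any other. Genes were called shared when the adjusted p of limma was under 0.05, all 4 libraries lay on 1 side of every other library, and the nearest tissue was at least 1 log2 unit away. Of 21772 genes 191 were higher in both (0.877%) and 73 lower (0.335%). Without the lung libraries, chosen as an alternative after the data had been seen, 313 were higher and 93 lower. Against kidney alone, all 264 shared genes were called again, but the rule for shared genes had already separated them from kidney, so this gives no support. After rescaling by the median ratio, 207 of the 264 were called again. Eef1a2, the form of a translation elongation factor made in neurons and muscle, led with 1190.4 and 1296 TPM in cortex, 1588 and 1476 TPM in heart and an average of 18.5 TPM in lung, the nearest tissue. Akap6, which anchors protein kinase A at the nuclear envelope of muscle and neurons, was at 98.6 and 106 TPM in cortex and 51.5 and 52 TPM in heart, against 1.82 TPM or less on average elsewhere. Cap2, an actin regulator, was at 189 and 222 TPM in cortex and 164 and 156 TPM in heart, against 9.97 TPM or less. Rasl10b, Lingo3, Gpr22 and Gal3st3 were also among the 10 genes with the largest distance, with 12.3 TPM or more in every cortex and heart library and 2.66 TPM or less on average in each other tissue.

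Ion channel genes were among the shared ones. Of 41 listed potassium and pacemaker channel genes 12 were higher in both tissues (29.3%, against 0.877% over all genes). The list does not hold every potassium channel gene. Kcnk5, named below among the genes lower in both tissues, is not in it, so the share describes the listed genes only. Kcnj3, a channel opened by G proteins that slows the heart and quiets neurons, was at 89.2 and 100.6 TPM in cortex, 51.8 and 54.2 TPM in heart and 2.55 TPM or less on average elsewhere. Kcnip2 was at 139.9 and 146 TPM in cortex and 284 and 303 TPM in heart, and its channel partner Kcnd2 at 92 and 92.7 TPM in cortex and 13.8 and 12.7 TPM in heart, each at 8.98 TPM or less on average elsewhere. The others included Kcna1, Kcna4, Kcna5, Kcnj11, Kcnj12, Kcnn1, Hcn2 and Hcn4, the last of which carries the pacemaker current.

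Of 17 calcium channel genes 5 were shared and higher (29.4%, against 0.877% over all genes), Cacna1c, Cacna1g, Cacnb2, Cacna2d1 and Cacna2d2. Of 28 calcium release, pump and exchanger genes 3 were (10.7%), Ryr2, Jph1 and Atp2a2. Ryr2 was at 65.4 and 66.5 TPM in cortex, 255 and 267 TPM in heart and 7.5 TPM or less on average elsewhere. Ryr2 was thus shared as a gene, while its 36 bp exon was used in opposite ways. Of the sodium channel list Fgf12 and Fgf13, which bind the channel from inside, were shared. Of 37 intercalated disc and costamere genes 5 were shared and higher (13.5%), Sgcb, Gja1, Ank1, Ank2 and Sptb.

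The shared list also held a marker of neurons. Slc17a7, a glutamate transporter of excitatory neurons, was at 851 and 1044 TPM in cortex and at 49.8 and 37 TPM in heart, where Snap25 and Syt1 lay at 0.181 TPM or less. The 10 genes lower in both tissues with the largest distance included Kcnk5, Tjp3, Rassf7, Phldb3, Acp5 and Dpp4. Kcnk5, a potassium channel of epithelia, was at 0.743 and 0.608 TPM in cortex, 1.13 and 1.21 TPM in heart and 12 TPM or more on average elsewhere. The other 4 were Ftl1, Ftl2, Gm22133 and Mir692-2a. They belong to families with similar copies or lie inside other transcripts, so that reads could be shared, which was not examined, and are given as uncertain.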

How the data were processed

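Strand-specific mRNA libraries were analysed. Per the labels and the study's methods, the authors trimmed 25 bp from reads of 101 bp, aligned reads of 76 bp with HISAT2 2.0.1 against mm10 and a SPRET/EiJ genome, and counted junction reads of SE events with rMATS on Ensembl annotation. The deposited junction read counts are not normalized, and each cell lists both libraries of a tissue. The effective lengths of both forms are a score written by rMATS and deposited beside them. Expression was deposited in TPM, made by the authors from featureCounts output.

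PSI was computed from counts and effective lengths. Cortex was compared with heart by a quasi-binomial model with dispersions of at least 1, moderated with limma 3.58.1 (R 4.3.3) along read depth. The prior was taken from events with 20 or more reads of the rarer form, a rule set after the data had been seen. Cortex and heart together were compared with the other tissues by limma on log2 ratios with 0.5 reads added to each count, and genes by limma on log2(TPM + 1) with a filter of 1 TPM. P-values were adjusted by the Benjamini-Hochberg method. With 2 biological replicates a group, they measure the spread between these libraries. Libraries 1 and 2 of a tissue follow the order in the lists, which carry no library name.

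Exons were named by rule: the 12 genes with the largest called difference in each direction and 50 or more reads per library, the 10 genes with the largest distance in each shared class, up to 6 genes for each place of the other tissues, and up to 4 per gene list. Genes were named by rule: the 10 with the largest difference and a mean of 10 TPM or more in the higher tissue, the 10 with the largest distance, and up to 4 per list and direction. The members, gene lists and rules were chosen with earlier results of these data known. Alternatives concerned the filters, thresholds, scaling, tissues and libraries used. The allelic counts were set side by side without a test. Events on the sex chromosomes, fibroblasts and the authors' own p-values were not used. Results for some genes that met these rules are not reported here. The scripts were tested on simulated data. Figures were drawn with matplotlib 3.10.9 in Python 3.11.15.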

Additional observations from a re-analysis of the deposited data

How the results depend on the processing

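For cortex against heart, a required difference of 0.2 left 1324 events of 2021, 728 higher in cortex and 596 higher in heart, by construction. Leaving out events near a PSI of 0 or 1 gave 2252 events of 5263 tested, 1214 higher in cortex and 1038 higher in heart. All 2021 were among the 2252. Leaving out 1 library gave 1681 to 2295 events. Taking the list position as a replicate block gave 1347 events, 590 of them higher in heart, all 1347 among the 2021. The numbers do not mark animals, and cortex and heart libraries of the same number did not deviate together (r = 0.0144 over exons and 0.0159 over genes). The block gave 423 shared exons, 10756 genes and 264 shared genes. The planned edgeR fit was not run, because the list cells cannot be read as a count column. A moderated linear model of log2 ratios, added after seeing the data, gave 1706 events, and a dispersion prior from all events 2108. For the shared exons, requiring all 5 other tissues left 283 events, 175 of them higher, and a distance of 0.2 left 232, 175 higher and 57 lower, both by construction. Leaving out 1 library gave 407 to 452 shared exons, 10629 to 10869 genes and 261 to 270 shared genes. Rescaling moved the genes to 5049 higher in cortex and 4421 higher in heart, and a log2 difference of 2 left 5146, 4074 and 1072 by direction. Shared genes rose to 406 without lung, 313 of them higher, and the shared lower genes from 73 to 118 with a pseudocount of 0.1 TPM, 140 without ESC and 157 without liver. Against kidney alone, 726 exons were shared, 456 higher and 270 lower, and 2892 genes, 759 higher and 2133 lower, with fewer tissues to be separated from by construction. The cause of the other changes was not tested.

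Without 1 library the cortex minus heart difference in PSI changed sign for exons of Mef2d (135 bp, -0.875 to 0.0313), which had been called, and of Srf (-0.0600 to 0.00200), Pdlim7 (-0.00914 to 0.0479), Tcf7l2 (73 bp, -0.0400 to 0.105, and 75 bp, -0.133 to 0.0663) and 4833439L19Rik (-0.0611 to 0.0178), which had not. Named exons of Kcnn1, Cacnb1, Camk2g (69 bp), Camk2b (75 bp), Camk2d (42 bp) and Aldoa lost their call between both tissues without 1 library. Rescaling turned the log2 difference of Mbnl1 to -0.36. Depth limited exons of genes that 1 tissue hardly expresses, such as Tnnt2 and Snap91.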
